A study of Mus musculus with 12 samples.

Results

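TALE homeobox genes encode transcription factors whose homeodomain carries an extended loop, and their proteins bind DNA together with HOX proteins. The 9 TALE genes listed by name for this account, Meis1, Meis2, Meis3, Pbx2, Pbx3, Pbx4, Pknox1, Tgif1 and Tgif2, were read from a table of 55573 genes by gene name, and each name matched 1 gene. Other TALE genes of these families are not analysed here, apart from Pknox2 and the more distant TALE genes given further on. RNA was sequenced from 12 libraries of mouse embryonic fibroblasts, 3 in each of 4 groups.

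All cells came from mice that lack p53 and carry the β-actin-TVA transgene, which supplies the receptor for avian RCAS viruses, so the absence of p53 is shared by every group. The cells had received RCAS-GFP, called vector here, or RCAS-HOXB13. The vector and HOXB13 groups of day 1 were confluent cells in DMEM with serum, taken after an overnight incubation. The vector and HOXB13 groups of day 21 had been kept in OsteoMAX-XF, a medium that drives bone differentiation, so day, medium and plate cannot be told apart. Wells were plated in triplicate, and no label ties them to separate animals or transductions. So p-values here reflect the spread from well to well alone, and that spread may be technical. The title of the series names HOXB13 excess and bone differentiation as its subject.

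Gene reads per library ranged from 11109392 to 15154317. Levels are the authors' values, the reads of a gene for each 1000000 of the TMM-scaled library size (RPM), a scaling that corrects for differences in library composition. Hoxb13, the check of the labels, stood at 0.375 ± 0.197 RPM with vector and 327 ± 3.28 with HOXB13 at day 1, then 0.343 ± 0.197 and 248 ± 8.59 at day 21 (SD, n = 3). Xist, the RNA of the inactive X chromosome, was at 151 to 452 RPM in the vector libraries and at no more than 0.519 in the HOXB13 libraries, while the Y-linked gene Ddx3y was at no more than 0.363 and at 96.8 to 108. An effect of HOXB13 and a difference between the cultures therefore cannot be told apart in any comparison of the viruses below. All 9 fibroblast markers passed the filter, and their summed level was lowest in the HOXB13 libraries of day 1 (21351 to 21605 RPM against 37599 to 45748 elsewhere). Col1a1, Col1a2, Col3a1 and Fn1 had their lowest group means there, but Vim (5193 RPM) and S100a4 (9.91 RPM) had their highest. Pdgfra (231 against 138 RPM) and Pdgfrb (196 against 175) were also higher there than with vector at day 1.

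Summed levels of markers of other cell types differed with the virus. The summed level of 6 mesothelial markers lay between 1092 and 3753 RPM in the vector libraries and between 49.4 and 66.4 in the HOXB13 libraries, with all 6 measured. The sum of 6 epithelial markers lay between 221 and 334 RPM with vector and between 30.3 and 160 in HOXB13, with Epcam below 1 RPM in every group. Krt19 went against this sum at day 1, with a mean of 82.1 RPM in vector and 132 in HOXB13, where it made up most of it. The sum of 5 neural markers was larger in HOXB13 at each day, from 15.1 to 15.9 RPM in vector to 177 to 180.5 with HOXB13 at day 1 and from 4.95 to 6.39 to 41.1 to 49.4 at day 21, with Snap25 and Sox10 below 1 RPM in every group. That difference lay nearly all in Stmn2, at means of 0.411 and 171 RPM at day 1 and 2.61 and 40.3 at day 21, while Tubb3 was at 13.1 and 4.81 at day 1. The 5 endothelial markers summed to at most 33.7 RPM and the 5 macrophage markers to at most 8.25. The sum of 4 smooth muscle markers differed with both the virus and the day. At day 1 it was 12878 to 13073.5 RPM with vector and 4223 to 4473 with HOXB13, and at day 21 1136 to 1177 and 388 to 425. Cnn1 differed little between the viruses, at means of 482 and 450 RPM at day 1 and 15.6 and 11.9 at day 21. Myh11 went against the sum at day 21, at 1.65 RPM in vector and 2.05 in HOXB13. The part of these cells or markers in the TALE levels was not tested. In bulk RNA fewer cells of a type and less RNA per cell cannot be told apart.

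In cells, PBX proteins bind DNA as partners of HOX proteins, and MEIS proteins bind PBX and also pair directly with posterior HOX proteins such as HOXB13. PREP1, the product of Pknox1, competes with MEIS for PBX, and the TGIF proteins are repressors that bind related sites and also hold back SMAD and retinoid signalling. In the vertebrate limb Meis1 and Meis2 mark proximal cells.

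The TALE genes did not shift as a block. Meis3 was higher in HOXB13 than in vector cells at both days, Meis1, Pbx3 and Pknox1 were lower at both days, and Pbx2 and Tgif1 changed in opposite directions at day 1 and day 21. Meis2 was slightly lower with HOXB13 at day 1 and less than 0.5 of the vector level at day 21. The plot of levels by library shows each gene in its 4 groups.

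**Figure D1:**
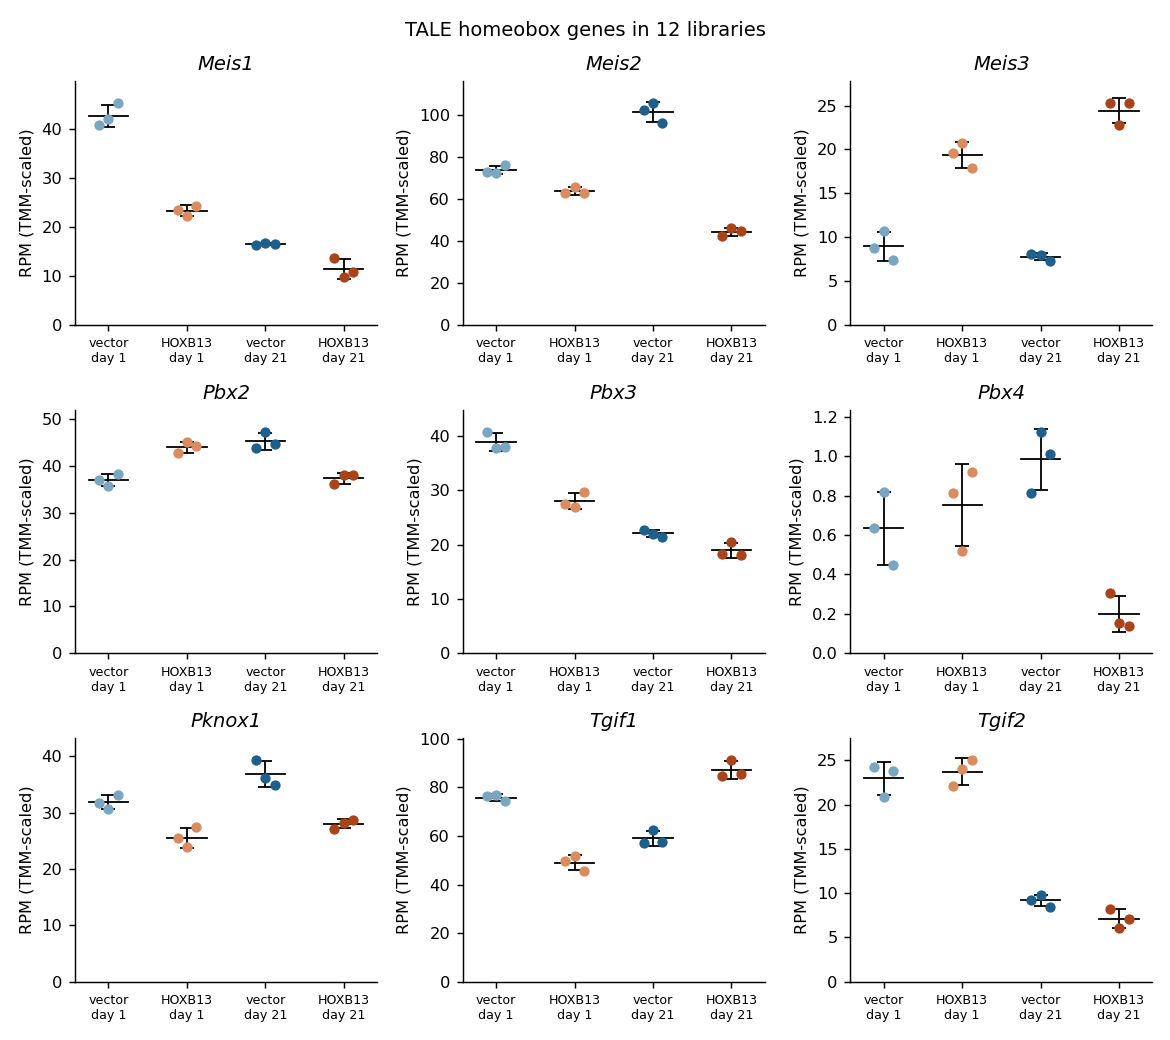
Levels of the 9 TALE genes in RPM (vertical axes, linear from 0, each panel with its own range) in the 4 groups; points are libraries, horizontal bars the mean and error bars the SD (n = 3). Meis3 was near 8 to 9 RPM in both vector groups and at 19.4 and 24.4 RPM in the HOXB13 groups, while Meis2 was highest in vector at day 21 (102 RPM) and lowest with HOXB13 at day 21 (44.4 RPM).

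Meis3 (ENSMUSG00000041420, GRCm38 chromosome 7, 16175090 to 16186504, plus strand), known for hindbrain patterning in the frog Xenopus, stood at 8.72, 10.7 and 7.41 RPM in the vector libraries of day 1 and at 19.6, 20.8 and 17.8 in the HOXB13 libraries. At day 21 its levels were 8.07, 7.95 and 7.32 with vector and 25.3, 22.8 and 25.3 in HOXB13. Every HOXB13 library lay above every vector library, and the vector groups of the 2 days overlapped each other. On the log2(RPM + 1) scale, which understates changes of low genes, Meis3 was higher in HOXB13 by 1.05 ± 0.10 at day 1 (SE, limma adjusted p = 2.18e-09), beside 1.53 ± 0.10 at day 21 (adjusted p = 1.93e-12). From day 1 to day 21 it rose in HOXB13 by 0.32 ± 0.10 (adjusted p = 0.00598), a value that came to 0.07 without the TMM factors (adjusted p = 0.532). In vector its log2 change between the days was -0.17 ± 0.10 (adjusted p = 0.126).

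Meis1 (ENSMUSG00000020160, chromosome 11, 18879817 to 19018985, minus strand), a partner of HOX proteins in blood cells, was at 40.8, 41.9 and 45.2 RPM with vector and at 23.4, 22.2 and 24.3 with HOXB13 at day 1. At day 21 it was at 16.3, 16.7 and 16.5 with vector and at 13.7, 9.67 and 10.9 in HOXB13. The 4 groups did not overlap and fell in the order vector day 1, HOXB13 day 1, vector day 21, HOXB13 day 21. Meis1 fell with time in both viruses, by 1.32 ± 0.09 on the log2 scale in vector (adjusted p = 1.22e-12) and by 0.98 ± 0.09 in HOXB13 (adjusted p = 3.36e-10). It was lower in HOXB13 than in vector, with log2 fold changes of -0.84 ± 0.09 at day 1 (adjusted p = 7.43e-09), beside -0.51 ± 0.09 at day 21 (adjusted p = 1.5e-05).

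Meis2 (ENSMUSG00000027210, chromosome 2, 115863064 to 116065839, minus strand), the close relative of Meis1, went in opposite directions over time in the 2 viruses. It stood at 72.8, 72.7 and 76.2 RPM in vector at day 1 and at 102, 106 and 96.6 at day 21. In HOXB13 it went from 62.7, 66.0 and 62.7 to 42.4, 46.1 and 44.6. No group overlapped another. Meis2 rose by 0.45 ± 0.04 on the log2 scale in vector (adjusted p = 8.69e-10) and fell by 0.51 ± 0.04 in HOXB13 (adjusted p = 1.09e-10), and this difference between the viruses itself passed the test (interaction -0.97 ± 0.06, adjusted p = 1.38e-12). Between the viruses its log2 fold change was -1.18 ± 0.04 at day 21 (adjusted p = 2.1e-17). At day 1 it was -0.21 ± 0.04 (adjusted p = 0.000143), and without the TMM factors this small difference was 0.00 (adjusted p = 0.975).

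Set against each other within a library, the share of Meis3 was larger with HOXB13 than with vector at both days. These shares use levels per kilobase of annotated exons, do not depend on the scaling of the library, and are means ± SD over 3 libraries. Meis3 made up 21.6% ± 3.57 of the summed MEIS level with vector and 44.8% ± 1.84 with HOXB13 at day 1, and 19.7% ± 0.452 and 61.7% ± 1.36 at day 21. Meis2 made up 47.2% ± 1.92 and 38.9% ± 0.703 at day 1, and 67.7% ± 0.441 and 29.6% ± 2.33 at day 21. Meis1 went from 31.2% ± 1.77 in vector at day 1 to 8.67% ± 1.34 with HOXB13 at day 21. By this length Meis2 had the largest share of the 3 in all 6 vector libraries, and Meis3 in all 6 HOXB13 libraries. By the length of the longest transcript, Meis2 instead led in all 3 HOXB13 libraries of day 1 (46.9% ± 0.806 against 40.6% ± 1.67 for Meis3), while Meis3 again led in all 3 of day 21.

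**Figure D2:**
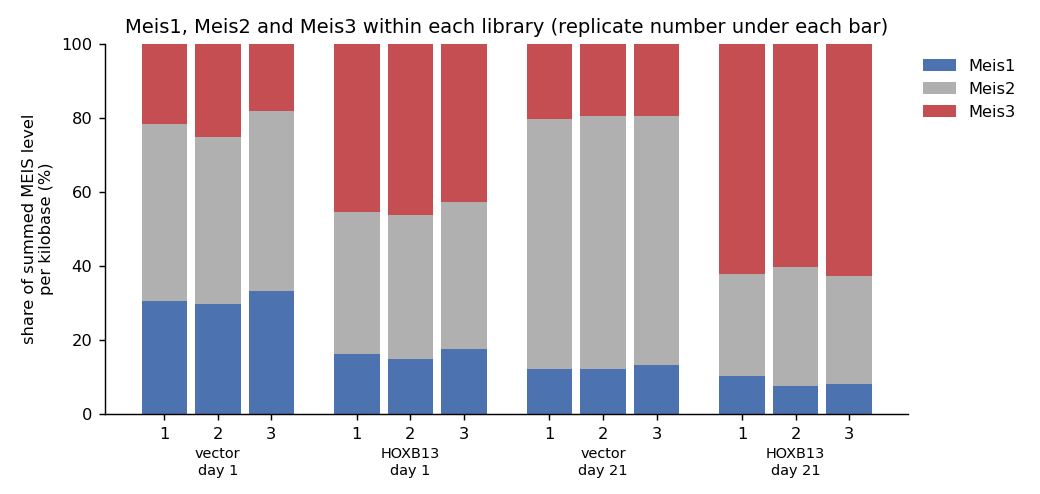
Share of the summed level per kilobase of Meis1, Meis2 and Meis3 (vertical axis, percent) taken by each gene in every library, by the length of all exons; each bar is 1 library, labelled by its replicate number. Meis3 took 42.8% to 46.3% with HOXB13 at day 1 and 60.2% to 62.7% at day 21, against 18% to 25.2% in the vector libraries.

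The summed level itself moved less than its parts. Per kilobase of exons it was 13 ± 0.361 RPM with vector and 13.6 ± 0.496 with HOXB13 at day 1, and 12.5 ± 0.506 and 12.5 ± 0.476 at day 21, with the libraries of the viruses overlapping at each day. The day 1 values rest on the scaling, since without the TMM factors they were 12.9 ± 0.368 and 15.6 ± 0.505. With the length of the longest transcript in place of all exons, the day 21 sums were 24.7 ± 1.04 with vector and 22.3 ± 0.676 in HOXB13. By that length the libraries of the viruses no longer overlapped at day 21 (23.56 to 25.6 and 21.5 to 22.68). The shares of Meis3 were then 19.6%, 40.6%, 16.35% and 56.9% in the order vector and HOXB13 at day 1, vector and HOXB13 at day 21. Per kilobase of all exons Hoxb13 was 10.9 ± 0.369 times the summed MEIS level with HOXB13 at day 1 and 9.02 ± 0.594 times at day 21, and per kilobase of the longest transcript 5.99 ± 0.209 and 5.05 ± 0.302 times. The sources used here do not say whether the virus carried the human or the mouse gene, so how fully the viral transcript was counted is unknown.

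The promoter windows of these MEIS genes are shown because the share of Meis3 among the 3 genes differed between the viruses by either length; each runs from 250 bases before to 50 after the RefSeq start site (GRCm38.p6), and RefSeq windows were found for 7 of the 9 genes. They were searched on both strands for the MEIS and PREP site TGACAG, the TGIF site TGTCA (which lies inside the reverse complement of TGACAG), the PBX and HOX site TGATNNAT and the HOXB13 forms CAATAAA and TCGTAAA. Matches are in capitals. Of 32851 windows of mouse genes, 19.2% held TGACAG, 45.45% TGTCA, 8.85% TGATNNAT, 4.6% CAATAAA and 0.597% TCGTAAA.
Meis1, chr11:19018920-19019219, minus strand: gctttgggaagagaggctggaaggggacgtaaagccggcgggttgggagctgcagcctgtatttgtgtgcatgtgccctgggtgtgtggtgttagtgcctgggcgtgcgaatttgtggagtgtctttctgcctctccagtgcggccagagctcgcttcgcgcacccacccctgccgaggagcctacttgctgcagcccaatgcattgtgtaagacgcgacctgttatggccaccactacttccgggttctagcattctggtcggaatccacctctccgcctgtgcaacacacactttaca
Meis2, chr2:116064570-116064869, minus strand: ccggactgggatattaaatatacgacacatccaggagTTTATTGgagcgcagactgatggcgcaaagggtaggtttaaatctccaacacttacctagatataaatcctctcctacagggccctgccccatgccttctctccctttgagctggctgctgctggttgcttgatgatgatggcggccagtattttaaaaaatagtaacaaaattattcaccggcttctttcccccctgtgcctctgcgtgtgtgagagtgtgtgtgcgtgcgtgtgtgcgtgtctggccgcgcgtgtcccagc
Meis3, chr7:16175145-16175444, plus strand: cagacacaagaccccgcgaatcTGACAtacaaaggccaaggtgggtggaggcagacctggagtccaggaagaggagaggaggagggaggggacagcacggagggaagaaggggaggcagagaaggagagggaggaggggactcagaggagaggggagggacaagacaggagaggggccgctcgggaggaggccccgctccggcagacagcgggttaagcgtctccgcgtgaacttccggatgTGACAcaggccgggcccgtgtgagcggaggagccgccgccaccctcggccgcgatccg
The Meis2 window held 1 match to CAATAAA, read on the opposite strand and starting 213 bases before the start site. The Meis3 window held 2 matches to TGTCA, starting 228 and 8 bases before the start site. None of the 5 motifs was found in the letters of the Meis1 window. The windows had 58.3%, 51% and 66.7% G and C, against a median of 52.7% over all windows. A match is a description of the sequence and not a binding site.

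Among the PBX genes Pbx2 and Pbx3 were well measured and Pbx4 was near the limit of detection. Pbx3 (ENSMUSG00000038718, chromosome 2, 34171457 to 34373142, minus strand) stood at 40.8, 37.9 and 38.0 RPM with vector and 27.5, 26.8 and 29.7 with HOXB13 at day 1. Its day 21 levels were 22.7, 22.04 and 21.5 with vector and 18.2, 20.5 and 18.1 in HOXB13. Its groups followed the same order as those of Meis1, with no overlap. Pbx3 was lower in HOXB13, with log2 fold changes of -0.46 ± 0.06 at day 1 (adjusted p = 8.96e-07), beside -0.21 ± 0.06 at day 21 (adjusted p = 0.00455). It fell over time by 0.79 ± 0.06 in vector (adjusted p = 5.61e-11) and by 0.54 ± 0.06 in HOXB13 (adjusted p = 4.37e-08).

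Pbx2 (ENSMUSG00000034673, chromosome 17, 34591266 to 34597400, plus strand) varied least of the 8 tested genes. Its levels were 37.0, 35.7 and 38.3 RPM with vector and 42.8, 45.1 and 44.3 with HOXB13 at day 1, and 43.9, 47.4 and 44.8 with vector and 36.1, 38.0 and 38.1 with HOXB13 at day 21. The viruses did not overlap at either day, but vector at day 21 overlapped HOXB13 at day 1, and HOXB13 at day 21 overlapped vector at day 1. Pbx2 was higher with HOXB13 at day 1 by 0.25 ± 0.05 on the log2 scale (adjusted p = 8.92e-05) and lower at day 21, at -0.27 ± 0.05 (adjusted p = 2.98e-05). It rose over time in vector by 0.29 ± 0.05 (adjusted p = 1.01e-05) and fell in HOXB13 by 0.23 ± 0.05 (adjusted p = 0.000154). The difference between these changes passed the test (interaction -0.52 ± 0.07, adjusted p = 5.68e-07). Of its exonic bases 227 (6.24%) are shared with Gpsm3 on the same strand, a gene at 1.67 ± 0.492 and 0.351 ± 0.191 RPM with vector and HOXB13 at day 1, then 11.6 ± 1.16 and 4.26 ± 0.707 at day 21. The sources used here do not say how reads in shared exons were counted, and their part in the Pbx2 levels was not tested.

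Within a library the level per kilobase of exons of Pbx2 was 1.6 ± 0.088 times that of Pbx3 in vector at day 1, and 2.64 ± 0.163 times in HOXB13. At day 21 the ratios were 3.45 ± 0.191 and 3.33 ± 0.212. The ratio thus differed between the viruses beyond the spread of the libraries at day 1, while its ranges overlapped at day 21. Which gene was higher at day 1 depends on the length, since by the longest transcript the ratios were 0.888 ± 0.0488 with vector and 1.47 ± 0.0906 with HOXB13, and 1.91 ± 0.106 and 1.85 ± 0.118 at day 21.

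Pbx4 (ENSMUSG00000031860, chromosome 8, 69832491 to 69872292, plus strand), known for its expression in the mouse testis, did not reach 1 RPM in 3 libraries and was left out of the main test. It was at 0.636, 0.816 and 0.449 RPM with vector and 0.815, 0.519 and 0.922 with HOXB13 at day 1, then 0.815, 1.12 and 1.01 with vector and 0.303, 0.156 and 0.139 with HOXB13 at day 21. The HOXB13 libraries of day 21 held 8 reads in all, against 38 in vector, a ratio of 0.2 (exact 95% interval 0.0808 to 0.436, which covers counting error only). At day 1 the HOXB13 and vector libraries held 37 and 24 reads, a ratio of 1.19 (0.695 to 2.09). Tested without a filter over 29400 genes, Pbx4 was lower with HOXB13 at day 21 (log2 fold change -0.73 ± 0.12, limma adjusted p = 0.000159, and -2.27 by edgeR, adjusted p = 1.9e-05) and did not pass at day 1 (0.10 ± 0.12, adjusted p = 0.617). The low reads make the size of this difference uncertain. The RefSeq window of Pbx4, not printed here, held 1 match to CAATAAA, starting 33 bases before the start site. Of all windows 4.6% held that motif, and a match is not a binding site.

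Pknox1 (ENSMUSG00000006705, chromosome 17, 31564734 to 31607693, plus strand) encodes PREP1, the competitor of MEIS for PBX. It was at 31.7, 30.7 and 33.2 RPM with vector and 25.4, 23.9 and 27.4 with HOXB13 at day 1, then 39.3, 36.2 and 35.0 with vector and 27.2, 28.1 and 28.7 with HOXB13 at day 21. All HOXB13 libraries lay below all vector libraries, and the HOXB13 groups of the 2 days overlapped. The log2 fold change of HOXB13 over vector came to -0.31 ± 0.06 at day 1 (adjusted p = 9.63e-05), beside -0.38 ± 0.06 at day 21 (adjusted p = 6.3e-06). Without the TMM factors the day 1 value was -0.10 (adjusted p = 0.14). Over time Pknox1 rose in vector by 0.20 ± 0.06 (adjusted p = 0.00404), and in HOXB13 its change of 0.13 ± 0.06 missed the threshold (adjusted p = 0.057). The interaction was -0.07 ± 0.09 (adjusted p = 0.46), which does not show that the viruses acted alike.

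Of the TGIF genes, Tgif1 showed the largest crossing between the days among the 8 tested genes. Tgif1 (ENSMUSG00000047407, chromosome 17, 70844205 to 70853546, minus strand), a repressor induced by TGF-β, stood at 76.2, 76.8 and 74.4 RPM with vector and 49.6, 51.6 and 45.7 with HOXB13 at day 1. Its day 21 levels were 56.9, 62.4 and 57.7 with vector and 84.7, 91.2 and 85.4 in HOXB13. No group overlapped another, and the HOXB13 libraries were the lowest at day 1 and the highest at day 21. Its log2 fold change of HOXB13 over vector came to -0.62 ± 0.05 at day 1 (adjusted p = 2.89e-11), beside 0.55 ± 0.05 at day 21 (adjusted p = 2.15e-10), with an interaction of 1.18 ± 0.07 (adjusted p = 2e-13). Tgif1 fell over time in vector by 0.36 ± 0.05 (adjusted p = 2.26e-07) and rose in HOXB13 by 0.82 ± 0.05 (adjusted p = 9.04e-14).

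Tgif1 has 5 RefSeq start sites, and the gene totals do not show which were used. The window shown is 1 of the 2 that hold TGACAG, with its match starting 5 bases past the start site. The letters TGTCA were found in 4 of the 5 windows and TGATNNAT in 1. Of all windows of mouse genes 19.2% held TGACAG and 45.45% TGTCA. A window of Tgif1 is printed because this gene crossed most strongly, and the window was taken from those that hold TGACAG.
Tgif1, chr17:70851161-70851460, minus strand: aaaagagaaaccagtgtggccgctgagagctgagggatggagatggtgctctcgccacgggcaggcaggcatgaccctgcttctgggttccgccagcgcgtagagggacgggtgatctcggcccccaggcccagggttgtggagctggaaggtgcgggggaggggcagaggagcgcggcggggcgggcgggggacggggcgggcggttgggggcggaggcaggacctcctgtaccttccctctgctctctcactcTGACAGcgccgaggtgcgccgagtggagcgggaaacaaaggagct

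Tgif2 (ENSMUSG00000062175, chromosome 2, 156840007 to 156855570, plus strand), the relative of Tgif1, had larger log2 fold changes between the days than between the viruses. It was at 24.3, 20.9 and 23.7 RPM with vector and 22.1, 24.1 and 25.01 with HOXB13 at day 1, then 9.21, 9.82 and 8.49 with vector and 8.19, 6.08 and 7.10 with HOXB13 at day 21. The viruses overlapped at day 1 and were apart at day 21. Tgif2 fell over time by 1.23 ± 0.10 on the log2 scale in vector (adjusted p = 2.53e-11) and by 1.61 ± 0.10 in HOXB13 (adjusted p = 1.88e-13). Its log2 fold change of HOXB13 over vector came to 0.05 ± 0.10 at day 1 (adjusted p = 0.684, and 0.25 with adjusted p = 0.0214 without the TMM factors) and -0.33 ± 0.10 at day 21 (adjusted p = 0.00366). Of its exonic bases 2171 (56.7%) are also covered by 5430405H02Rik on the opposite strand, which was at 1.55 ± 0.468 to 2.52 ± 0.0479 RPM over the groups. The library kit keeps the strand, but the sources used here do not give the strand setting of the counting. Within a library the level of Tgif1 per kilobase was 2.26 ± 0.215 and 1.41 ± 0.151 times that of Tgif2 with vector and HOXB13 at day 1, and 4.39 ± 0.218 and 8.48 ± 1.61 times at day 21.

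The counts of members that passed have to be read against a background in which most genes passed. At day 1, 2 of the 8 tested TALE genes were higher in HOXB13 and 5 lower, 7 in all, while 72.5% of the 13516 tested genes passed, 33.9% as higher and 38.5% as lower. Without the TMM factors the split of the members at day 1 was 3 higher and 3 lower. At least 2-fold changed was 1 of the 8, Meis3, against 13.3% of all tested genes. With a pseudocount of 4 or under quantile normalization Meis3 came to less than 2-fold. It also did so without replicate 3 of vector at day 1 (log2 fold change 0.93) or replicate 2 of HOXB13 at day 1 (0.9994). At day 21, 2 were higher and 6 lower, all 8, against 72.4% of tested genes, 37.3% as higher and 35.1% as lower, and 2 of the 8 (Meis2 and Meis3) were at least 2-fold changed against 16.6%. The median log2 fold change of the 8 genes was -0.26 at day 1 and -0.30 at day 21, beside -0.03 and 0.01 over all tested genes, and the median absolute log2 fold change was 0.38 and 0.45 beside 0.32 and 0.33.

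Over time in vector 3 of the 8 rose and 4 fell, 7 in all, against 83.6% of tested genes (41.7% rising and 41.9% falling), and 2 (Meis1 and Tgif2) changed at least 2-fold against 28.1%. In HOXB13 2 rose and 5 fell, 7 in all, against 80.1% (39.5% rising and 40.6% falling), and 1 (Tgif2) changed at least 2-fold against 23.6%. Meis1, Pbx3 and Tgif2 fell in both viruses, and Meis2, Pbx2 and Tgif1 passed in both in opposite directions. The interaction passed for 7 of the 8, 4 above 0 and 3 below, against 68.2% of tested genes (36.6% above and 31.7% below), and at least 2-fold for 1 (Tgif1) against 17.4%. The contrasts share groups of libraries, so their counts are not independent of each other.

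**Figure D3:**
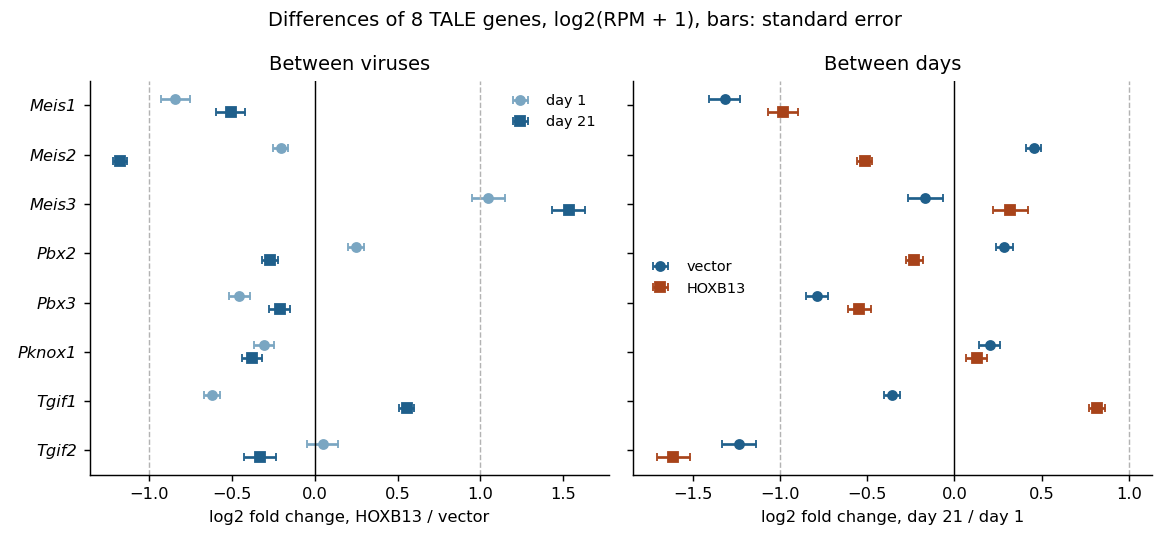
Log2 fold changes of the 8 tested TALE genes on the log2(RPM + 1) scale (horizontal axes) between the viruses (left, by day) and between the days (right, by virus); bars are standard errors from limma and dashed lines mark 2-fold. Tgif1 lies at -0.62 and 0.55 on the left, on opposite sides of 0, and Meis2 at 0.45 with vector and -0.51 in HOXB13 on the right.

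The TMM factors bear on the small changes. Effective library sizes were 0.989 and 1.15 times the counted reads in the vector and HOXB13 groups of day 1, and 1.01 and 0.956 times in those of day 21. Without these factors the median log2 fold change of all tested genes moved from -0.03 to 0.15 at day 1, from -0.01 to -0.24 between the days in HOXB13 and from 0.03 to -0.23 in the interaction. The share of higher genes among those that passed moved from 46.8% to 67% at day 1, from 49.3% to 34.5% between the days in HOXB13 and from 53.6% to 29.2% in the interaction. Among the members the interactions of Meis1 (0.06), Meis3 (0.21) and Pbx3 (-0.03) no longer passed without them, and that of Pknox1 did (-0.35). The interaction then passed for 1 member above 0 and 4 below, and between the days in HOXB13 1 member rose and 5 fell.

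The genes nearest in pattern to each member were taken from 12475 named genes by the root mean square difference in log2(RPM + 1), centred on each gene's mean over the 12 libraries, for the 5 members whose group means spanned at least 1 on that scale. Nearest to Meis1 were Tead1, the DNA-binding partner of YAP (difference 0.121), the kinase gene Map4k5 (0.126) and the nuclear pore gene Pom121 (0.128). Meis2 was nearest to the scaffold gene Magi3 (0.0829), the tensin gene Tns3 (0.0895) and the calcium sensor gene Stim2 (0.0896). Meis3 was nearest to Gja1, which encodes connexin 43 (0.138), the calcium channel subunit gene Cacna2d1 (0.143) and the hexokinase gene Hk1 (0.143). Pbx3 lay nearest to the chaperonin gene Cct3 (0.0664), Mrpl3 (0.0687) and Wdr46 (0.0687), and Tgif2 nearest to the annexin gene Anxa6 (0.122) and the kinetochore genes Knstrn (0.125) and Cenpn (0.13). With a pseudocount of 4, 2 of the 3 genes were again among the nearest for Meis1 and for Meis2, 1 for Pbx3 and for Tgif2, and 0 for Meis3.

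**Figure D4:**
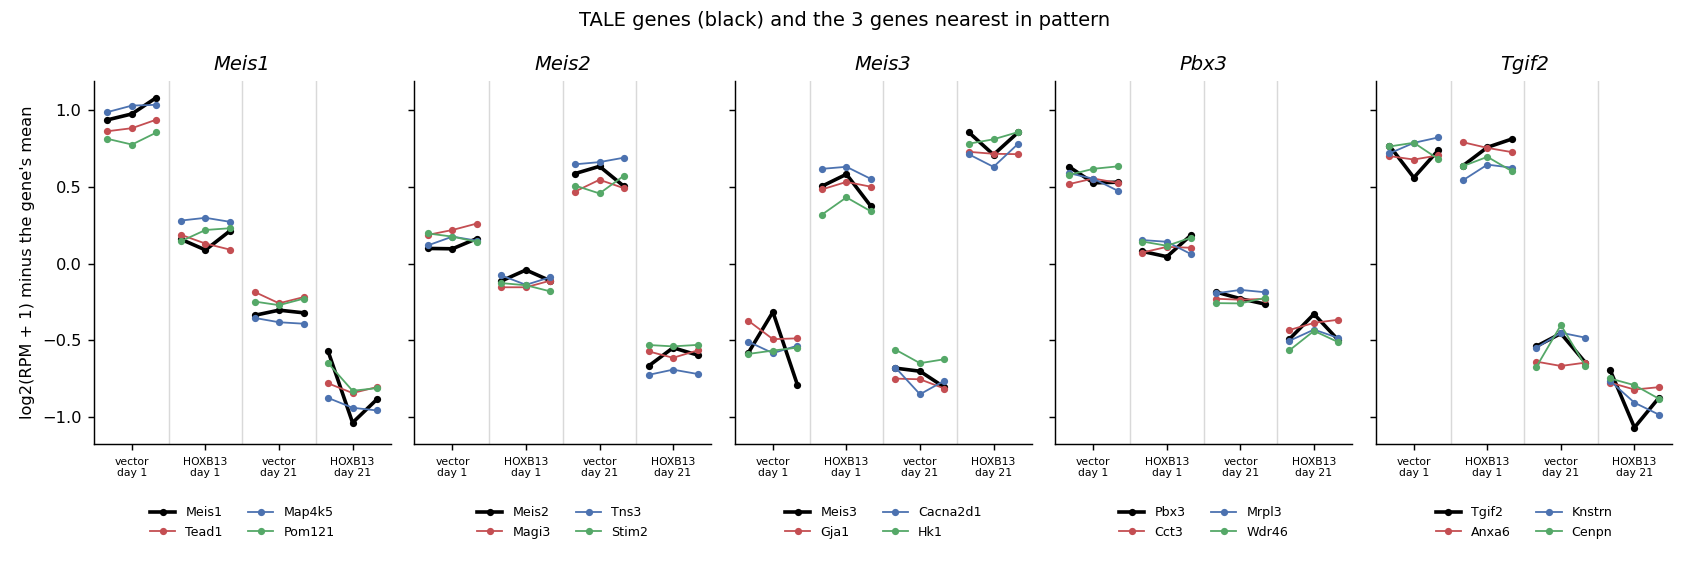
Level of 5 TALE genes (black) and of the 3 genes nearest to each in pattern (coloured), as log2(RPM + 1) minus the gene's own mean over the 12 libraries (vertical axis), by library within each group (horizontal axis; lines join libraries of a group only). The nearest genes differ from the TALE gene by 0.0664 to 0.143 on this scale, as a root mean square over 12 libraries.

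Most measured HOX genes, whose proteins are partners of the TALE proteins, were lower with HOXB13 than with vector at both days. Of all tested genes 33.9% were higher and 38.5% lower with HOXB13 at day 1, and 37.3% and 35.1% at day 21. Of 18 measured Hox genes of paralog groups 1 to 8, 16 were lower with HOXB13 at day 1 and 1 higher, and 14 were lower and 3 higher at day 21. All 8 measured genes of groups 9 to 13 other than Hoxb13 were lower at each day. The median log2 fold changes were -2.05 and -2.29 at day 1 and -1.19 and -0.91 at day 21. Hoxc8 was at 37.7 ± 1.45 RPM with vector and 1.72 ± 0.207 with HOXB13 at day 1, then 11.2 ± 0.561 and 1.47 ± 0.572 at day 21. Hoxc9, of the second list, was at 12.7 ± 0.998 and 0.552 ± 0.0526 at day 1. Hoxc5 (log2 fold change -3.35 at day 1), Hoxa3 (-2.31 at day 21) and Hoxc10 (-3.10 at day 1 and -1.52 at day 21) were also among the most changed. Of all tested genes 41.7% rose and 41.9% fell over time in vector, and 39.5% and 40.6% in HOXB13. In vector 17 of the 18 and 7 of the 8 fell, and in HOXB13 8 and 2 fell while 1 and 2 rose. The largest changes within groups 1 to 8 were those of Hoxc5 (-2.75) and Hoxc4 (-1.92) in vector and of Hoxb6 (-1.18) and Hoxb3 (-1.16) in HOXB13. Within groups 9 to 13 they were those of Hoxb9 (-1.97) and Hoxc9 (-1.91) in vector and of Hoxb9 (-0.64) and Hoxa10 (0.60) in HOXB13. Without the TMM factors 13 of the 18 fell in HOXB13. Several of these genes, such as Hoxc4 (0.613 RPM), Hoxc5 (0.473) and Hoxc9 (0.552), were already below 1 RPM with HOXB13 at day 1. Others, such as Hoxb3 (20.2) and Hoxb6 (17.1), were not. Genes that low have little room to fall on the log2(RPM + 1) scale, so the smaller counts in HOXB13 do not show that they held steady.

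Pknox2, the relative of Pknox1, was higher with HOXB13 at both days, and genes of the more distant Iroquois family of TALE genes differed in direction among themselves. Pknox2 was at 3.49 ± 0.757 RPM with vector and 10.2 ± 1.61 with HOXB13 at day 1, then 2.54 ± 0.59 and 91.2 ± 2.29 at day 21, a log2 fold change of 1.32 ± 0.13 at day 1 (adjusted p = 2.84e-09) and of 4.71 ± 0.13 at day 21 (adjusted p = 7.38e-20). The Iroquois gene Irx1 was lower with HOXB13 at day 1, at 13.1 ± 0.895 against 34.4 ± 1.29 RPM, and higher at day 21, at 98.7 ± 7.63 against 34.2 ± 2.12. Irx3 was higher with HOXB13 at both days, at 27.3 ± 1.49 against 15.2 ± 2.05 RPM at day 1 and 14.4 ± 1.38 against 4.39 ± 0.885 at day 21. Of the 6 measured genes of this list of 8, 2 were higher and 2 lower with HOXB13 at day 1, and 5 were higher and 1 lower at day 21. The shares of all tested genes were 33.9% higher and 38.5% lower at day 1, and 37.3% and 35.1% at day 21. Over time in vector 0 rose and 4 fell, against 41.7% and 41.9% of all tested genes. In HOXB13 4 rose and 2 fell, against 39.5% and 40.6%. The largest changes over time were those of Irx3 (-1.60) and Irx2 (-1.17) with vector and of Pknox2 (3.06) and Irx1 (2.83) in HOXB13.

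Genes tied to TGIF through TGF-β signalling were counted in the same way, and the counts of the partner list moved with the scaling. Of 10 measured TGIF partners and SMAD corepressors, 2 were higher and 5 lower with HOXB13 at day 1, a split that became 6 and 2 without the TMM factors and 4 and 3 under quantile normalization. At day 21, 5 were higher and 2 lower, and 5 and 5 without the TMM factors. With the TMM factors 33.9% of all tested genes were higher and 38.5% lower at day 1, and 37.3% and 35.1% at day 21. Smad3, which encodes a SMAD of the TGF-β pathway, was at 115 ± 1.43 RPM with vector and 59 ± 1.79 with HOXB13 at day 21, and Skil, a SMAD corepressor, at 188 ± 5.35 and 90.4 ± 3.46 at day 1 (log2 fold change -1.05, and -0.85 at day 21). Smad2 was lower at day 1 (-0.37). Of 7 TGF-β feedback and target genes 0 were higher and 6 lower with HOXB13 at day 1, and 3 were higher and 4 lower at day 21. Skil is counted in both lists. Ltbp2 was lower with HOXB13 at both days (log2 fold changes -1.81 at day 1 and -1.41 at day 21). Smad7, an inhibitory SMAD gene, was also lower at both (-1.31 and -1.64). Tgfbi stood at 7.54 ± 1.72 RPM with vector and 35.4 ± 1.39 with HOXB13 at day 21. Among the larger changes over time in vector were those of Hdac2 (-1.37), Ski (-0.65) and Ccn2 (-2.24), and in HOXB13 those of Smad3 (-1.33), Hdac2 (-0.98), Smad7 (-1.08) and Ccn2 (-0.94). Over time 9 of the 10 partners fell in vector with 0 rising, and 9 fell in HOXB13 with 1 rising. Of the 7 targets 6 fell in vector with 0 rising, and 4 fell and 3 rose in HOXB13. Among all tested genes 41.9% fell and 41.7% rose in vector, and 40.6% and 39.5% in HOXB13. Pbxip1, whose product binds PBX proteins, passed as higher in HOXB13 at both days (log2 fold changes 0.29 ± 0.03 and 0.54 ± 0.03) and as rising over time in both viruses (0.46 ± 0.03 with vector and 0.72 ± 0.03 in HOXB13).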

How the data were processed

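The table deposited by the authors holds a linear signal, RPM, gene reads per 1000000 of the TMM-scaled library size. STAR 2.7.2a, HTSeq 0.6.1, edgeR and DESeq2 are named without their step, per the submitters' processing notes, which give the build GRCh38 although the gene identifiers are mouse. In each library 100% of values were whole multiples of 1 read within 0.01, which gave the reads. The aligner settings and a mouse build are not stated there. Coordinates and lengths are from GENCODE M21 (GRCm38), promoters from RefSeq. The test took genes that reached 1 RPM in 3 or more libraries, on log2(RPM + 1) by limma 3.58.1 (1 mean per group over all 12 libraries, eBayes with trend, R 4.3.3), as a two-sided test, the Benjamini-Hochberg adjustment running over 13516 genes at a threshold of 0.05. The 5 contrasts were the viruses at each day, the days in each virus and their interaction. Alternatives were pseudocounts of 0.25 and 4, no filter, a filter of 5 RPM, other scalings, a replicate block, leaving out each library, sex-chromosome genes left out, and count tests of the reads (edgeR 4.0.16, DESeq2 1.42.0). The fit was also run on simulated data with known changes in a small part of the genes. Library sizes were taken as known there, so that run does not test the scaling. All members are named; of each list, the 2 called genes with the largest changes in each contrast of viruses or days are named; and the 3 nearest genes in pattern are named for members whose group means span at least 1. A list gene that this rule names is not reported here. Members and lists were chosen with earlier results of these data known.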

Additional observations from a re-analysis of the deposited data

Results flagged for a closer look

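For 7 TALE genes the difference between HOXB13 and vector was not the same at day 1 and day 21, by limma's test of the interaction (log2 difference at day 21 minus that at day 1). Tgif1 stood out with 1.18 (adjusted p = 2e-13) and Meis2 with -0.97 (adjusted p = 1.38e-12), followed by Pbx2 with -0.52 (adjusted p = 5.68e-07). For these genes the groups of the viruses did not overlap at either day. For Meis3 the value was 0.49 (adjusted p = 0.00439), for Meis1 0.33 (adjusted p = 0.0199), for Pbx3 0.24 (adjusted p = 0.0206) and for Tgif2 -0.38 (adjusted p = 0.0176). Of all tested genes 68.2% passed this test. The interaction of Meis1 missed the threshold without replicate 3 of vector at day 1 (0.29), replicate 2 of HOXB13 at day 1 (0.30) or replicate 1 of HOXB13 at day 21 (0.20, adjusted p = 0.0796). That of Pbx3 missed it without replicate 1 of vector at day 1 (0.21), replicate 2 of HOXB13 at day 1 (0.21) or replicate 2 of HOXB13 at day 21 (0.19). That of Tgif2 missed it without replicate 2 of vector at day 1 (-0.31), replicate 3 of HOXB13 at day 1 (-0.34) or replicate 2 of HOXB13 at day 21 (-0.28).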

How the results depend on the processing

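The number of members that passed stayed within 1.5 times the reported one under every setting run. Leaving out each library in turn gave 7 at day 1, 8 at day 21, 7 to 8 between the days in vector and in HOXB13, and 5 to 7 in the interaction. With replicate numbers as a block, 7, 8, 7, 7 and 7 members passed in the 5 contrasts and no call changed. Residual correlations between libraries of equal number ran from -0.0712 to 0.0602 over 13516 genes. They show no shared effect over the genes, but cannot tell whether equal numbers mark pairs. Without the TMM factors the sign changed for Meis2 at day 1 (0.0018) and for the interaction of Pbx3 (-0.0329). That interaction also missed the threshold by edgeR (adjusted p = 0.0519) and DESeq2 (adjusted p = 0.0905), and that of Tgif2 under quantile normalization (adjusted p = 0.0644). The interaction of Meis1 missed it without a filter (adjusted p = 0.062), where more genes are tested. Leaving out single libraries ended the interaction calls of Meis1, Pbx3 and Tgif2 in 3 cases each. Meis3 passed as falling in vector under quantile normalization (-0.40) and without replicate 3 of vector at day 1 (-0.28), and Pknox1 as rising in HOXB13 after rescaling by the median of ratios (0.15) and without replicate 3 of HOXB13 at day 1 (0.18). Other causes were not tested. Low reads limit Pbx4, which had 2 to 15 in a library.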

Other observations

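Genes known to be bound by HOXB13 with MEIS1 in human prostate cancer cells, written down with earlier results of these data known, rose with time in both viruses, 3 of 3 in each. Among all tested genes 41.7% rose in vector and 39.5% in HOXB13. At day 1, 2 of the 3 were higher in HOXB13 and 1 lower, and at day 21 1 was higher and 2 lower. The shares of all tested genes were 33.9% higher and 38.5% lower at day 1, and 37.3% and 35.1% at day 21. Lum, the lumican gene, was at 2.35 ± 0.272 RPM with vector and 14.1 ± 1.5 with HOXB13 at day 1, then 65.7 ± 11.3 and 45.1 ± 0.854 at day 21. Dcn, the decorin gene, was at 77.1 ± 3.37 and 48.7 ± 4.16 at day 1, then 1157 ± 45.8 and 509 ± 6.26 at day 21. Tgfbr3, a TGF-β coreceptor gene, was at 46.1 ± 4.41 and 163 ± 3.34 at day 1, then 385 ± 16.1 and 575 ± 5.17 at day 21.

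Of 4 genes known to lie under Meis1 in mouse heart muscle or blood, 4 rose with time in each virus, while Meis1 itself fell. Among all tested genes 41.7% rose in vector and 39.5% in HOXB13. Between the viruses 33.9% of all tested genes were higher with HOXB13 at day 1 and 37.3% at day 21. A link between these 4 genes and Meis1 was not tested. The cell cycle inhibitor gene Cdkn2b went from 56.6 ± 3.07 to 194 ± 5.26 RPM with vector and from 71.7 ± 4.15 to 133 ± 1.61 in HOXB13. Hif1a, the hypoxia factor gene, went from 279 ± 6.31 to 938 ± 29.3 and from 214 ± 3.64 to 1189 ± 16.5. Between the viruses 3 were higher in HOXB13 and 1 lower at each day, and Cdkn2a, the p16 and ARF gene, was higher at both days, at 256 ± 2.69 against 131 ± 0.965 RPM at day 1 and at 425 ± 6.45 against 235 ± 3.96 at day 21. Cdkn1a, the p21 gene, was higher with HOXB13 at both days (log2 fold changes 0.37 at day 1 and 0.76 at day 21). It rose over time in both viruses (0.90 with vector and 1.29 in HOXB13).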
